A study of Mus musculus with 8 samples.

Results

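The genes described here are 10 members of the semaphorin, plexin and neuropilin families, namely the semaphorins Sema4a, Sema4b, Sema4c, Sema4d and Sema7a, the plexins Plxnd1, Plxnc1 and Plxnb2, and the neuropilins Nrp1 and Nrp2. They were chosen by name from 29924 gene names on the array, and all 10 were represented. The choice was made with earlier results of these data known. A count of called genes beside the share over all genes is therefore a description and no test of the families. A gene was read through its brightest probe, and any second probe served as a check. All 10 entered the tests, since the tests took in every gene that the scanner software put well above background at both days in 1 cell type or more. Nrp1 passed this mark on 6 of the 8 arrays, Nrp2 on 7, and the other genes on every array.

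The cells came from pLN of B6.Cg-Foxp3<tm1Mal> mice, in which Foxp3 expressing cells carry EGFP, and all mice had been immunized s.c. with KLH and alum. Sorted naive CD4 T cells (GFP- PD1- GL7-), TFH cells (GFP- PD1hi GL7+), Treg cells (GFP+ PD1- GL7-) and TFR cells (GFP+ PD1hi, with or without GL7) were collected on d12 and on d25 p.i., with 1 array for each. For each array, 25 ng of RNA from a pool of 8 to 15 mice aged 8 to 14 weeks went into the labelling. The study used females and males, and the sex of each pool is not given. The only repeat of a cell type is thus its array from the other day. Values are normalized signals in relative units (RU), with a floor of 20, and differences are log2 differences of these signals with their standard error (SE) from limma, at n = 2 arrays per cell type.

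Semaphorins are secreted, transmembrane or lipid-anchored ligands first known from the guidance of axons, and plexins are their main receptors. The cytoplasmic part of a plexin acts on small GTPases of the Ras and Rap type and thereby alters adhesion and the cytoskeleton, whereas neuropilins are co-receptors with short cytoplasmic tails that also bind VEGF. In the immune system, class 4 semaphorins and Sema7a take part in contacts of T cells with B cells, dendritic cells and macrophages, and Nrp1 is widely used as a surface marker of Treg cells of thymic origin.

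Between naive CD4 T and TFH cells, 8 of the 10 genes differed at an adjusted p below 0.05 (5 higher and 3 lower in TFH cells). Over all 15764 genes tested, 46.5% passed the same test, 20.9% as higher and 25.6% as lower. Between Treg and TFR cells, 7 of 10 passed (4 higher and 3 lower in TFR cells), against 39.6% of all genes, 18.7% higher and 20.9% lower. The median log2 difference of the 10 genes was 1.40 for TFH versus naive cells and 0.16 for TFR versus Treg cells, beside -0.07 and -0.08 over all genes. With so many genes of the array called between these cell types, the counts say little by themselves, and the sizes are described gene by gene.

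**Figure D1:**
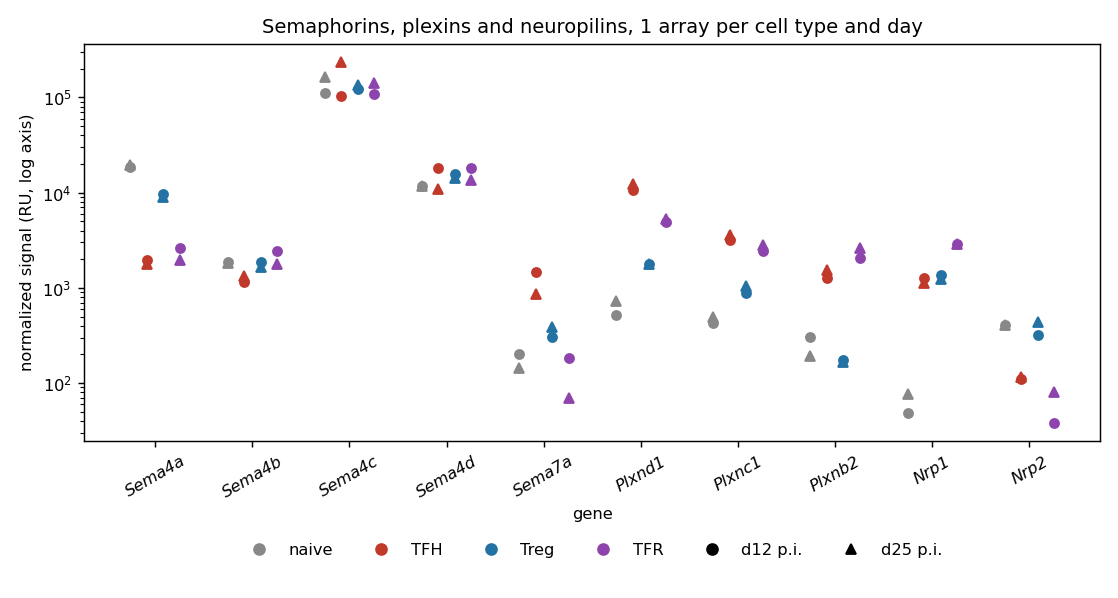
Normalized signal (RU, log axis) of the 10 genes, with 1 point per array, colored by cell type and shaped by day p.i. (circles d12, triangles d25). Sema4a lies between 1761 and 2593 RU in both follicular cell types and between 8950 and 19418 RU in naive and Treg cells, and Plxnd1 and Plxnc1 show the opposite order.

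Among the ligands, Sema4a, a transmembrane semaphorin that binds plexins of the B and D type, showed the largest fall. Its signal was 18574 RU at d12 and 19418 RU at d25 in naive cells, but 1975 and 1761 RU in TFH cells. Treg cells had 9714 and 8950 RU and TFR cells 2593 and 1961 RU. Thus both follicular cell types lay below both non-follicular ones at each day, and TFH and TFR cells overlapped. Sema4a was lower in TFH than in naive cells by a log2 difference of -3.35 ± 0.13 (SE, adjusted p = 0.000188), and TFR cells were below Treg cells by -2.05 ± 0.13 (adjusted p = 0.00108). These calls held under all 17 alternatives. Treg cells were already below naive cells (-1.03 ± 0.13, adjusted p = 0.0143, with 5 of 17 alternatives above the threshold and 0.0775 to 0.109 when the Treg array of d12 or d25 or the naive array of d25 was left out).

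Sema7a, a lipid-anchored semaphorin with plexin C1 and the integrin of Itga1 and Itgb1 as receptors, was the only ligand of the 10 genes called as higher in TFH than in naive cells. TFH cells had 1458 RU at d12 and 855 RU at d25, naive cells 204 and 143 RU, Treg cells 301 and 385 RU, and TFR cells 185 and 70 RU. Both TFH arrays were above all other arrays. The log2 difference between TFH and naive cells was 2.71 ± 0.41 (adjusted p = 0.00633), and TFR cells were lower than TFH cells by -3.30 ± 0.41 (adjusted p = 0.00793, lost without a filter on dim genes at 0.0637 and also with slide as a block). Compared with Treg cells, TFR cells had a log2 difference of -1.59 ± 0.41 (adjusted p = 0.0360). This last call rests on the 2 days unequally, with -0.71 at d12 and -2.46 at d25, and was lost under 10 of 17 alternatives, 7 of them by leaving out 1 array (adjusted p from 0.0503 to 0.169).

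Sema4b, a class 4 transmembrane semaphorin, had a small range from 1160 to 2456 RU. TFH cells had the lowest signals with 1160 RU at d12 and 1326 RU at d25, below naive cells (1882 and 1831 RU), Treg cells (1848 and 1651 RU) and TFR cells (2456 and 1776 RU). The log2 difference was -0.58 ± 0.17 for TFH versus naive cells (adjusted p = 0.0441) and 0.75 ± 0.17 for TFR versus TFH cells (adjusted p = 0.0388). Both stood near the threshold and were lost under 8 and 9 of 17 alternatives, for instance without the naive array of d12 (range over single arrays left out 0.0832 to 0.180 and 0.0589 to 0.176 among those that lost the call).

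Sema4d, also known as CD100, binds plexins of the B type and CD72. By its brighter probe, naive cells had 11843 RU at d12 and 11743 RU at d25, TFH cells 18140 and 10874 RU, Treg cells 15753 and 14117 RU, and TFR cells 17939 and 13657 RU. The cell types overlapped and no comparison was called (TFH versus naive 0.25 ± 0.19, adjusted p = 0.329). A second probe, which the array design assigns to a predicted transcript, gave 860 and 672 RU in naive, 338 and 475 RU in TFH, 1040 and 1000 RU in Treg, and 542 and 545 RU in TFR cells. By that probe both follicular cell types were lower, by -0.92 ± 0.21 for TFH versus naive cells (adjusted p = 0.0220 over all probes tested) and by -0.91 ± 0.21 for TFR versus Treg cells (adjusted p = 0.0274). With the mean of both probes, the sign of the gene's difference turned to -0.34 (adjusted p = 0.0248) and -0.42 (adjusted p = 0.0159). The 2 probes therefore give no single direction for Sema4d. They lie apart on the minus strand of chromosome 13 (build NCBI37), and the last 30 bases of each are shown because only the brighter one holds the letters AATAAA of a polyadenylation signal (capitals).
brighter probe, chr13:51796617-51796646: gtacccaAATAAAccagaagctttatcgtt
second probe, chr13:51781462-51781491: gtgtcttggctggctccacactgccattcg

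Sema4c, a ligand of plexin B2, had the highest signals of the 10 genes, but its probe is made up in part of a simple repeat. The signals were 111840 RU at d12 and 163738 RU at d25 in naive, 102270 and 235259 RU in TFH, 122734 and 133949 RU in Treg, and 109081 and 141713 RU in TFR cells. In each cell type the d25 array was higher, and no comparison of cell types was called (TFH versus naive 0.20 ± 0.27, adjusted p = 0.576). The probe contains an alternating TG run of 22 bases in whole TG units (the capitals below hold 1 further T), and among the probes of 21 other semaphorins and plexins, only that of Sema6d had a 2-base run over 6 bases (20 bases). The stretches of both probes with the run are shown in build NCBI37, Sema4c on the minus and Sema6d on the plus strand, with the run in capitals.
Sema4c, chr1:36606028-36606057: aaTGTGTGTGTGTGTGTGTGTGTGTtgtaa
Sema6d, chr2:124491639-124491668: agaggggcgaGTGTGTGTGTGTGTGTGTGT

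On the whole array, 73 probes held a TG run of 16 bases or more, and all 73 were well above background on all 8 arrays, compared with 42.7% of the 39356 probes without such a run. Their median level was 64814 RU, beside 51 RU for the rest. Apart from Sema4c itself, 64 of 72 followed the Sema4c signal over the 8 arrays with a Pearson r above 0.9 (median 0.966), whereas 0.28% of the other probes that were above background on all arrays did so. The 3 genes with the profile most like Sema4c, Cyp2u1, Ms4a4c and Pak4 (r of 0.998, 0.997 and 0.995), were likewise read by probes with the run. The second probe of Sema6d, which has no such run, stayed below that mark on all 8 arrays. The Sema4c signal thus has the profile of probes for other genes that hold the same letters. How much of it comes from Sema4c mRNA was not tested, and it is not read here as a level of that mRNA. Sema4c nevertheless stays among the 10 genes in the counts and medians. No other probe of the 10 genes had a 2-base repeat longer than 6 bases.

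**Figure D2:**
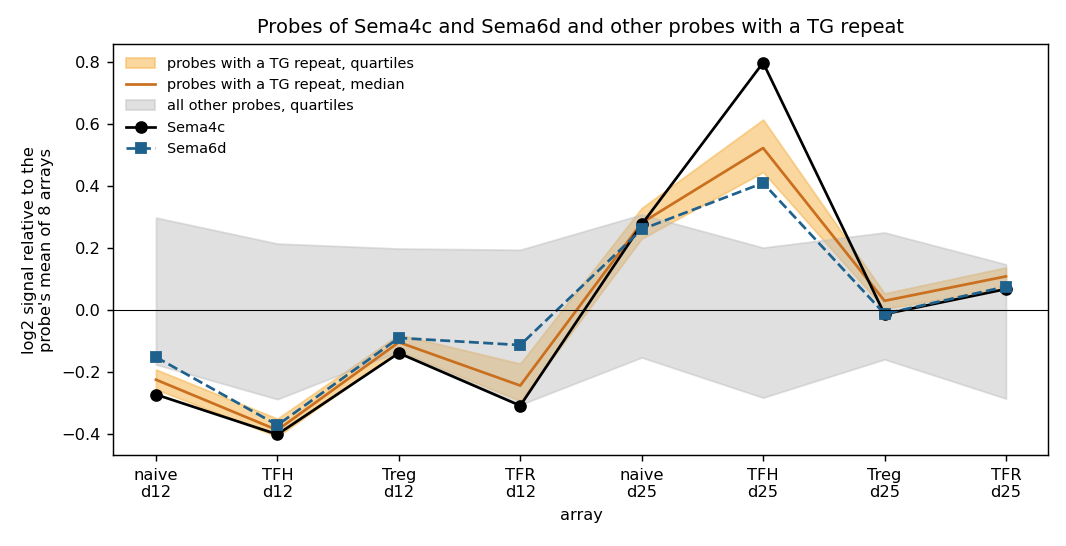
Log2 signal of each of the 8 arrays relative to a probe's own mean. The lines of Sema4c and Sema6d run with the band (quartiles) and median of 71 other probes that hold a TG run of 16 bases or more, which is lowest in TFH cells at d12 and highest in TFH cells at d25, while the gray band gives the quartiles of 16802 other probes above background.

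Among the receptors, Plxnd1, the receptor of Sema3e that also binds Sema4a, was 516 RU at d12 and 735 RU at d25 in naive cells and 10621 and 12222 RU in TFH cells. Treg cells had 1759 and 1787 RU and TFR cells 4931 and 5252 RU. No 2 cell types overlapped, and the order was TFH, TFR, Treg and naive cells. The log2 difference was 4.21 ± 0.14 for TFH versus naive cells (18.5-fold, adjusted p = 0.000160) and 1.52 ± 0.14 for TFR versus Treg cells (2.87-fold, adjusted p = 0.00256). Treg cells were above naive cells by 1.53 ± 0.14 (adjusted p = 0.00594, and 0.0576 without the Treg array of d12). TFR cells were below TFH cells by -1.16 ± 0.14 (adjusted p = 0.00753, and 0.0596 or 0.0683 when either TFR array was left out). A second probe, between 154 and 2247 RU, gave the same order, with 3.76 ± 0.10 for TFH versus naive and 1.20 ± 0.10 for TFR versus Treg cells.

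Plxnc1, the plexin that binds Sema7a, ran almost in parallel. Naive cells had 425 RU at d12 and 497 RU at d25, TFH cells 3151 and 3564 RU, Treg cells 888 and 1041 RU, and TFR cells 2455 and 2839 RU. The groups again did not overlap and had the same order as for Plxnd1. The log2 difference was 2.87 ± 0.08 for TFH versus naive cells (7.29-fold, adjusted p = 0.000106), 1.46 ± 0.08 for TFR versus Treg cells (2.75-fold, adjusted p = 0.000724) and 1.06 ± 0.08 for Treg versus naive cells (adjusted p = 0.00318), and these held under all 17 alternatives. The step from TFH to TFR cells was small at -0.34 ± 0.08 (adjusted p = 0.0389) and was lost under 13 of 17 alternatives, among them each of the 8 arrays left out in turn (0.0836 to 0.185). A second and dimmer probe, with 20 and 29 RU in naive and 192 and 115 RU in TFH cells, was not well above background in naive cells, so that no fold is given there. For TFR versus Treg cells it gave 0.63 ± 0.32 and was not called (adjusted p = 0.174 over all probes tested), below the 1.46 of the brighter probe. TFR cells had 123 RU at d12 and 146 RU at d25 by this dimmer probe, so that they overlapped with TFH cells.

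Over the 8 arrays, the log2 signals of Plxnd1 and Plxnc1 had a Pearson r of 0.986 with each other, and of -0.971 and -0.994 with Sema4a. These are descriptions over 4 cell types with 2 arrays each, and all genes share the arrays. Because both plexins moved together, the 250 bases before their RefSeq start sites are shown (GRCm38.p6, both on the minus strand). Capitals mark the letters GGGNGTG, which Krüppel-like factors can bind, and a pair of GAAA set 2 bases apart, of the type bound by interferon regulatory factors, searched on both strands. The matches do not overlap.
Plxnd1, chr6:115995006-115995255: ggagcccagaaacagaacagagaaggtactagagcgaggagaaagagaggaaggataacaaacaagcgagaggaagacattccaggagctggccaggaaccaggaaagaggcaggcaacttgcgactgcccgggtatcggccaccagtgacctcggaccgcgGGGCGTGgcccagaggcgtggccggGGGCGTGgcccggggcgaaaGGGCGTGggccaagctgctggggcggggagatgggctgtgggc
Plxnc1, chr10:94944846-94945095: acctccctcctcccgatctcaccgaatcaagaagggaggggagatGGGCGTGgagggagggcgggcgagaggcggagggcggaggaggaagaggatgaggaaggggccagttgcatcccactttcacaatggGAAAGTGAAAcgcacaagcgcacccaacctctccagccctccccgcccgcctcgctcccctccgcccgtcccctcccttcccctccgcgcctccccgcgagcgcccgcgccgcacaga

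The Plxnd1 window held GGGNGTG 3 times and the Plxnc1 window once, and 26.1% of all 32851 windows of this length held it at least once. The paired GAAA was found once, in Plxnc1, and was present in 3.0% of the windows. GGGNGTG also occurred in at least 1 window of Sema4a (of 4 windows), Sema4b (of 2), Sema4c (of 2), Sema4d (of 3) and Nrp2 (of 1). It was found in none of Sema7a (1 window), Plxnb2 (2) and Nrp1 (1). Genes with more windows have more places for a match, so these genes cannot be set against the share per window. Of the other letters searched, GGGCGG (32.7% of windows) was found once in Plxnd1 and 4 times in Plxnc1, and TGANTCA (6.7%), TGTTTAC (3.2%), CTTTGA (13.8%) and CAGCTG (13.0%) in neither. The letters are a description of the sequence and no measure of binding.

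Plxnb2, a receptor of Sema4c and Sema4d, differed from the other plexins by its highest level in TFR cells. Naive cells had 304 RU at d12 and 191 RU at d25, TFH cells 1269 and 1544 RU, Treg cells 174 and 167 RU, and TFR cells 2057 and 2628 RU. All 4 cell types were separated on both days, naive and Treg cells being close. Plxnb2 was higher in TFR than in Treg cells by 3.77 ± 0.27 (13.7-fold, adjusted p = 0.00138), which was the largest difference among the 10 genes in this comparison. It was higher in TFH than in naive cells by 2.54 ± 0.27 (5.81-fold, adjusted p = 0.00220), and both calls held under all 17 alternatives. Between TFR and TFH cells the difference was 0.73 ± 0.27, which was not called (adjusted p = 0.123) but passed under 3 of 17 alternatives.

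**Figure D3:**
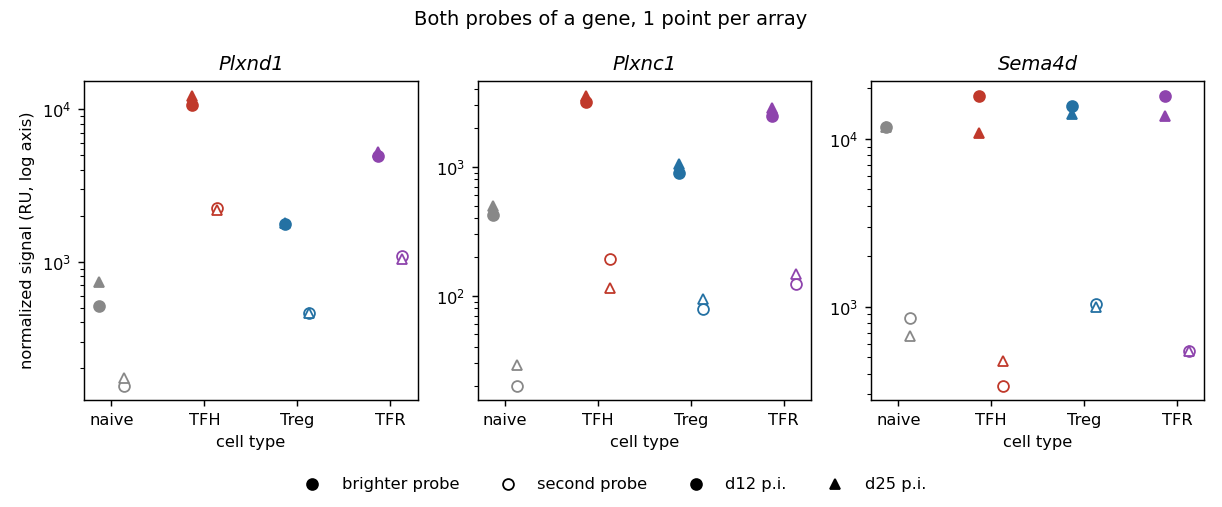
Normalized signal (RU, log axis) of both probes of Plxnd1, Plxnc1 and Sema4d, with filled symbols for the brighter and open symbols for the second probe, circles for d12 and triangles for d25. The probes of Plxnd1 rank the cell types alike, whereas those of Sema4d do not.

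Nrp1, the co-receptor of class 3 semaphorins and VEGF, was not well above background on either array of naive cells (48 and 77 RU). TFH cells had 1264 RU at d12 and 1133 RU at d25, Treg cells 1353 and 1253 RU, and TFR cells 2863 and 2879 RU. Accordingly, TFH cells were at least 16.5-fold (adjusted p = 0.000336) and Treg cells at least 17.9-fold (adjusted p = 0.00155) above naive cells, counted on each naive array against the lowest signal well above background or the gene's own signal, whichever was higher. Nrp1 entered the tests only through TFH, Treg and TFR cells, so its p-values in comparisons that use naive cells are no independent support. TFH and Treg cells overlapped, and both TFR arrays lay above all others. TFR cells exceeded Treg cells by 1.14 ± 0.23 (adjusted p = 0.0182) and TFH cells by 1.26 ± 0.23 (adjusted p = 0.0221). Leaving out any Treg or TFR array moved the first to 0.0704 to 0.114, and leaving out any TFH or TFR array moved the second to 0.0530 to 0.148.

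Nrp2, a co-receptor with a preference for other class 3 semaphorins and VEGF-C, was lowest in TFR cells. Naive and Treg cells overlapped (Treg versus naive -0.11 ± 0.28, adjusted p = 0.843). Naive cells had 407 RU at d12 and 405 RU at d25, Treg cells 323 and 437 RU, TFH cells 109 and 117 RU, and TFR cells 38 and 80 RU, of which only 80 RU was well above background. Both non-follicular cell types were above both follicular ones on all arrays. TFH cells were lower than naive cells by -1.85 ± 0.28 (adjusted p = 0.00619) and TFR cells were lower than Treg cells (at least 5.82-fold, adjusted p = 0.00298). TFH cells were at least 1.75-fold above TFR cells, which was not called (adjusted p = 0.0582). Nrp2 entered the tests only through naive, TFH and Treg cells, so its p-values in comparisons that use TFR cells are no independent support. A second probe of Nrp2 was below background on all arrays.

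**Figure D4:**
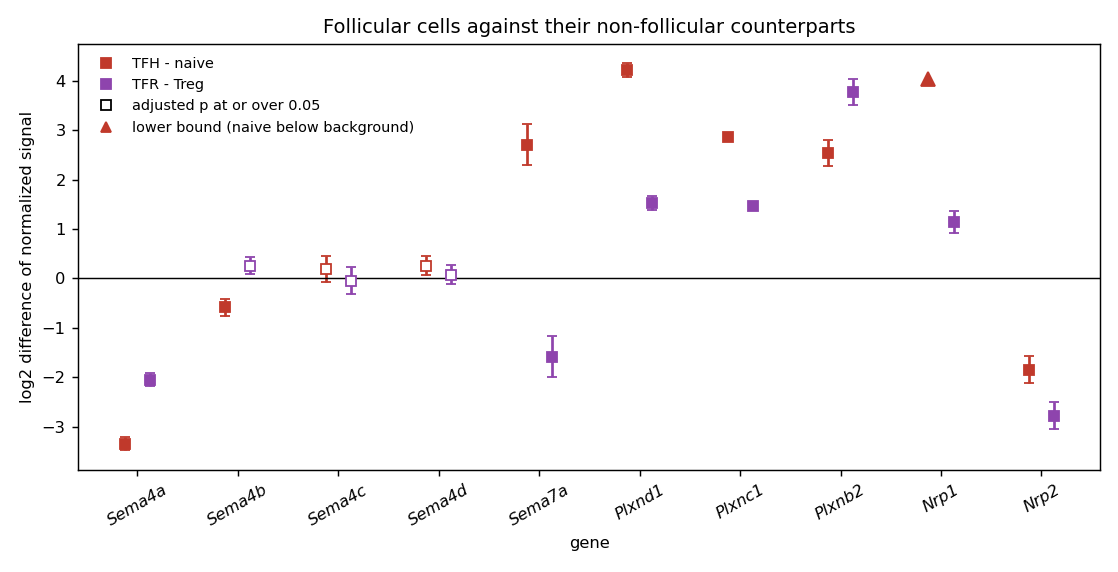
Log2 difference of the normalized signal for TFH minus naive cells (red) and TFR minus Treg cells (purple), with bars for the SE of the limma fit and open symbols for an adjusted p of 0.05 or above. The triangle of Nrp1 is a lower bound. The purple point of Nrp2 is drawn as fitted, although Nrp2 was well above background on only 1 TFR array and the text gives a bound. Sema7a is the only gene with called differences of opposite sign, and the Sema4c probe holds a simple repeat.

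To ask whether the step to the follicular state had the same size in Foxp3- and Foxp3+ cells, the difference between both steps was tested. It was called for 5 of 10 genes (1 higher, 4 lower in Foxp3+ cells), against 8.49% of all genes, 4.03% higher and 4.46% lower. Because the 10 genes were chosen with earlier results of these data known, this count is a description only. Of the other semaphorins and plexins, 1 of 6 tested was called. Plxnd1 (-2.69 ± 0.20, adjusted p = 0.00564) and Plxnc1 (-1.41 ± 0.11, adjusted p = 0.00612) had a smaller rise in Foxp3+ cells, and these held under all 17 alternatives. By the second Plxnc1 probe, not well above background in naive cells, the difference was also negative but not called (adjusted p = 0.0705 over all probes tested). Sema4a had a smaller fall (1.30 ± 0.19, adjusted p = 0.0226), which was lost under 10 of 17 alternatives, including each of the 8 arrays left out (0.0570 to 0.110). Sema7a moved in opposite directions (-4.29 ± 0.58, adjusted p = 0.0201), a call lost under 8 of 17 alternatives, 6 of them single arrays (0.0512 to 0.0858). For Nrp1 the fit gave -3.15 ± 0.33 (adjusted p = 0.0112), and -2.90 with naive cells set to their bound. This call was lost without any 1 of the Treg or TFR arrays (0.0522 to 0.0719). Plxnb2 had 1.23 ± 0.38 and was not called (adjusted p = 0.133). The count of 5 fell to 2 without either TFR array and to 3 without any other single array.

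In Treg versus naive cells, 4 of 10 genes were called (Plxnd1, Plxnc1 and Nrp1 higher, Sema4a lower), beside 9.88% of all genes, 5.89% higher and 3.98% lower. This count, like the next for TFR versus TFH cells, describes genes chosen with earlier results known. Without the Treg array of d12, 2 passed. In TFR versus TFH cells, 5 of 10 were called (Nrp1 and Sema4b higher, Sema7a, Plxnd1 and Plxnc1 lower), beside 22.1% of all genes, 11.6% higher and 10.5% lower. This count fell to 1 without the TFR array of d12, to 2 without the TFR array of d25 or the TFH array of d12, and to 3 without the TFH array of d25 or either Treg array. Between d25 and d12, none of the 10 genes was called by limma, 2 had an unadjusted p below 0.05 (Plxnc1 and Sema4c), and 0.0698% of all genes were called. At each day, the cell type differences of Plxnd1, Plxnc1, Plxnb2 and Sema4a had the same sign, for instance 4.36 at d12 and 4.06 at d25 for Plxnd1 in TFH versus naive cells.

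Of the 21 other semaphorins and plexins on the array, 6 could be tested. Among these was Sema6d, which was read by its repeat probe and called in neither follicular comparison. The class 3 semaphorins Sema3a to Sema3g, secreted ligands most of which use neuropilins, were not well above background on any array. In TFH versus naive cells 4 of 6 were called (2 higher, 2 lower, beside 46.5% of all genes) and in TFR versus Treg cells 2 of 6 (1 higher, 1 lower, beside 39.6%). Sema4f, a transmembrane semaphorin, was lowest in Treg cells, with 622 RU at d12 and 571 RU at d25, compared with 2206 and 1841 RU in naive, 1646 and 1152 RU in TFH and 1078 and 874 RU in TFR cells. It was lower in TFH than naive cells (-0.55 ± 0.12, adjusted p = 0.0180) and higher in TFR than Treg cells (0.70 ± 0.12, adjusted p = 0.0110). Plxna1, a class A plexin, was lower in both follicular cell types, by -0.34 ± 0.09 (adjusted p = 0.0321) and -0.41 ± 0.09 (adjusted p = 0.0224). Plxna3 and Plxnb1 were below background in naive cells. TFH cells were at least 3.48-fold (Plxna3, adjusted p = 0.0232) and at least 2.72-fold (Plxnb1, adjusted p = 0.00328) above them. Plxna3 entered the tests only through TFH and TFR cells, and Plxnb1 only through TFH, Treg and TFR cells. Their p-values against naive cells are therefore no independent support.

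Of 41 partners and signal transducers of these receptors, 31 could be tested, and 18 were called in TFH versus naive cells (7 higher, 11 lower, beside 46.5% of all genes) and 15 in TFR versus Treg cells (7 higher, 8 lower, beside 39.6%). The 5 with the largest differences over both comparisons were all lower in TFH than in naive cells. The largest was that of Rras2, a small GTPase of the R-Ras group. It was 2262 and 2189 RU in naive, 146 and 138 RU in TFH, 2811 and 2817 RU in Treg, and 1058 and 907 RU in TFR cells, that is -3.97 ± 0.09 (adjusted p = 8.32e-05) and -1.52 ± 0.09 (adjusted p = 0.000970). Mical3, of the family of oxidoreductases that act on actin, was lower in TFH than in naive cells (-2.13 ± 0.08, adjusted p = 0.000188) and not called in TFR versus Treg cells (0.029 ± 0.083, adjusted p = 0.810), with 370 and 380 RU in TFH cells and 3300 and 3289 RU in TFR cells. Pak1, a kinase downstream of Rac, was at least 2.70-fold higher in naive than in TFH cells (adjusted p = 0.00450) and at least 2.58-fold higher in Treg than in TFR cells (adjusted p = 0.00953). Itga1, an integrin chain of the Sema7a receptor, was at least 3.69-fold higher in naive than in TFH cells, where it was not well above background (adjusted p = 0.00826). Itga1 entered the tests only through naive cells and Pak1 only through naive and Treg cells, so their p-values are no independent support. Itgb1, the other chain of that receptor, was higher in TFH than in naive cells (1.62 ± 0.13, adjusted p = 0.00107). It was also higher in TFR than in Treg cells (1.17 ± 0.13, adjusted p = 0.00414). Cd72, a receptor of Sema4d, was 1472 and 1312 RU in naive and 157 and 561 RU in TFH cells (-2.23 ± 0.58, adjusted p = 0.0315). Among those higher in TFR than in Treg cells, the largest difference was that of Crmp1, a collapsin response mediator named here after its values were seen. It was 6023 and 5146 RU in TFR and 1604 and 2007 RU in Treg cells (1.63 ± 0.22, adjusted p = 0.00623).

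The sorted populations were checked with marker lists. Foxp3 was 48593 to 49262 RU in Treg, 37266 to 37513 RU in TFR and 66 to 358 RU in naive and TFH cells. Of the other regulatory T markers, Il2ra and Lrrc32 likewise set Treg and TFR cells apart. Ikzf2 and Ctla4 did not, with 10506 and 10814 RU and with 7083 and 8995 RU in TFH cells. Treg cells had 9925 and 11103 RU of Ikzf2 and 8109 and 10125 RU of Ctla4. Cxcr5 was 182426 to 237465 RU in TFH and 35322 to 35810 RU in TFR cells, against 1400 to 4384 RU in the others. The 4 T cell markers on the array were above background on all arrays. Of 8 B cell markers, 3 to 7 were above background on an array, with a summed level of 5483 to 7330 RU in naive, 7641 to 16043 RU in TFH, 9679 to 10061 RU in Treg and 7723 to 8685 RU in TFR cells, and Pax5 was at the floor of 20 RU on all arrays. The highest sum was on the TFH array of d25, where Ms4a1, a surface protein of B cells, was 2738 RU, compared with 246 RU on the TFH array of d12. The log2 difference between TFH and naive cells was 4.36 at d12 and 4.06 at d25 for Plxnd1, 2.89 and 2.84 for Plxnc1, 2.84 and 2.58 for Sema7a, and 2.06 and 3.02 for Plxnb2. Cd72 in TFH cells was higher at d25. The part of B cell RNA in these values was not tested. In sorted pools, fewer cells expressing a gene and less RNA per cell cannot be told apart. Summed levels of other lists were 19081 to 33255 RU for myeloid and dendritic, 69070 to 135710 RU for plasmacytoid dendritic (mostly Siglech and Bst2), 3271 to 10831 RU for antibody-secreting, 2110 to 5118 RU for CD8 T and 2427 to 5053 RU for endothelial and stromal cells, with Clec9a and Pdpn at 20 RU on all arrays.

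All 4 arrays of d12 shared a slide. At d25, naive and TFH cells were on 1 slide and Treg and TFR cells on another, so that the comparisons of TFH with naive and of TFR with Treg cells lie within slides. The difference between both steps is thus made of comparisons within slides. Those of Treg with naive and of TFR with TFH cells lie within a slide at d12 alone, and the effect of day cannot be told apart from that of slide.

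The genes with the profile most like each member over the 8 arrays (Pearson r of log2 signals among genes tested) were Actn1, Cyp17a1 and Olfr1535 for Sema4a (0.997, 0.994 and 0.994), Ly96, Fyn and Atcay for Plxnd1 (0.994, 0.991 and 0.991), and Il13, Opn3 and Plek for Plxnb2 (0.994, 0.991 and 0.990). For Plxnc1 they were an unnamed probe, Ces2b and Stx11 (0.997 each). With 4 cell types, such values are common, and 466 genes for Sema4a, 420 for Plxnc1, 258 for Plxnd1 and 199 for Plxnb2 exceeded 0.95. Sema7a had 1 such gene, Atg101 (0.977), followed by Gm41600 and Pikfyve. For Sema4b they were Rbsn, C2cd4a and LOC105243194 (0.969, 0.962 and 0.957), and for Sema4d a transcript with no symbol, Wrap73 and an unnamed probe (0.981, 0.974 and 0.973).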

How the data were processed

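RNA of sorted cells was labelled and hybridized by the authors to one-color Agilent arrays. Per the labels, spots were extracted with Agilent Feature Extraction 10.7.3.1, and the authors deposited the spot intensities (background-corrected signal) with flags, besides their own table of normalized values, rounded to whole numbers with a floor of 20 and treated here as a score. From the deposited spot intensities, the 4 spots of a probe were averaged by the geometric mean after exclusion of flagged, outlying (by interquartile range) and uneven spots (pixel coefficient of variation above 0.5). Values were quantile normalized, scaled to a common 75th percentile and set to a floor of 20. The log2 values correlated with the authors' table with an r of 0.999 on each array, and the brightest 1% were higher here by 0.51. The fit used limma 3.58.1 under R 4.3.3 (cell type plus day, 3 residual degrees of freedom, prior 1.89), adjusted by Benjamini-Hochberg over 15764 genes tested and called below 0.05. With 1 array per cell type and day, the residual holds any day-specific change besides noise, and the number of arrays limits the precision. Depth is not a property of arrays, and 18261 to 19867 of 39429 probes per array were well above background.

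The members, the lists of further genes and the comparisons were chosen with earlier results of these data known. All 10 members were tested in every comparison. Their called differences are all given, whereas some that were not called are counted without their values. Of the other lists, those named are the 5 with the largest absolute log2 difference among genes called in TFH versus naive or TFR versus Treg cells, or all where fewer were called. Crmp1 and Itgb1 were added later. For each member above background on all arrays, the 3 most similar genes are given. The fit was tested on simulated data. Alternatives were 75th percentile scaling without quantile normalization, the authors' table, normexp background correction with an offset of 50, no excluded spots, the mean of all probes of a gene, no filter, only genes above background on all 8 arrays, no day term, slide as a block, and leaving out each array. The scan for repeats was added after the data were examined. Probe positions are in build NCBI37 as in the files, promoters are from RefSeq (GRCm38.p6, all 10 genes matched), and whether a probe lies in an exon or UTR was not determined here. The one-way ANOVA named by the study needs replicates per cell type and day and was not used. Cells of Peyer's patches were not analysed here.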

Additional observations from a re-analysis of the deposited data

Results flagged for a closer look

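For 5 genes the step from the non-follicular to the follicular cell type differed between Foxp3+ and Foxp3- cells by the test of that difference (limma, Foxp3+ minus Foxp3-, log2 scale). The values were 1.30 for Sema4a, -4.29 for Sema7a, -2.69 for Plxnd1, -1.41 for Plxnc1 and -3.15 for Nrp1. Nrp1 was not well above background in naive cells, and with these set to their bound its value was -2.90. For Sema7a the value was -3.54 at d12 and -5.04 at d25. At d25, Foxp3+ and Foxp3- cells lay on different slides, but each step was taken within 1 slide at each day. With slide as a block, the log2 values of both steps of these genes stayed the same. The count of called genes was then 3 of 10.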

How the results depend on the processing

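Over the alternatives, 7 of the 8 genes called in TFH versus naive cells and 5 of the 7 called in TFR versus Treg cells were called each time they could be fitted, as were 2 of 4 in Treg versus naive cells, 2 of 5 for the difference between both steps, and 0 of 5 in TFR versus TFH cells. The number called in TFR versus TFH cells, 5, became 2 without a filter on dim genes and 2 with slide as a block, and 1 to 4 when single arrays were left out. In Treg versus naive cells, 4 became 2 to 4 when single arrays were left out. For the difference between both steps, 5 became 2 without a filter, 3 with slide as a block, and 2 to 3 when single arrays were left out. The cause was not tested. Without the filter 29924 genes were tested, and the SE of the members changed in either direction. In TFR versus Treg cells it went from 0.41 to 0.49 for Sema7a and from 0.078 to 0.016 for Plxnc1. A left-out array leaves fewer samples, with the lone array assumed to vary like the others. No day contrast was fitted without a day term or with slide as a block, and Nrp1 and Nrp2 could not be fitted with only genes above background on all 8 arrays. Signs turned only for differences that were not called in the main setting. For Sema4c these were -0.27 in TFH versus naive cells and 0.15 for the difference between both steps with 75th percentile scaling alone, and 0.23 in Treg versus naive cells with slide as a block. With the mean of all probes they were -0.34 and -0.42 for Sema4d in TFH versus naive and TFR versus Treg cells, and 0.26 for Nrp2 in Treg versus naive cells. Sema4b gave 0.11 in Treg versus naive cells with slide as a block, and with normexp Plxnb2 gave 0.042 and Nrp1 -0.0081 in d25 versus d12. With single arrays left out, Sema4c ranged from -0.23 to 0.62 in TFH versus naive, -0.34 to 0.25 in TFR versus Treg, -0.74 to 0.11 in TFR versus TFH and -0.37 to 0.21 in Treg versus naive cells and from -0.67 to 0.18 for the difference between both steps. Sema4d ranged from -0.023 to 0.53, -0.042 to 0.18 and -0.12 to 0.43 in the first 3 of these and from -0.46 to 0.093 in the last. Nrp2 ranged from -0.38 to 0.16 in Treg versus naive cells, and Plxnb2 and Nrp1 from -0.15 to 0.19 and -0.087 to 0.19 in d25 versus d12. Signal over background limits Nrp1 in naive and Nrp2 in TFR cells, whose values there are bounds. With 1 array per cell type and day, the day term pairs the arrays by day in the fit. The labels give no replicate numbers, so no other pairing was possible.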
